A study of Mus musculus with 2 samples.

Results

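Cd209a dendritic cells are the cells of the calvarial defect that held transcripts of Cd209a, a C-type lectin gene of the DC-SIGN family, together with abundant MHC class II transcripts. A cell was a member when it carried at least 2 UMIs (unique molecular identifiers, each counting 1 captured mRNA) of Cd209a and at least 30 UMIs summed over H2-Aa, H2-Ab1 and H2-Eb1. It also had to hold under 3 UMIs of Xcr1 and Clec9a together, under 3 of Ccr7, under 20 of C1qa, C1qb and C1qc together and at most 3 of Cd79a and Cd79b together, with S100a8 and S100a9 below 3% of its UMIs. Of 17129 cells kept from both libraries, 135 met these conditions. The cells were thus chosen by their measured UMIs of these genes, whose levels are given below as a description only. In GRCm38, Cd209a lies at chr8:3743397-3748984 on the minus strand and H2-Ab1 at chr17:34257689-34269419.

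Single-cell RNA sequencing had been made of cranial bone with a defect at its centre, 7 days after injury, in male C57BL/6 mice (C57BL/6J in the study's methods) 2 months old. The GA library came from mice injected intraperitoneally with gambogic amide, a small molecule, at 1.2 mg/kg in 10% DMSO, and the control library from mice given 10% DMSO alone. Injections of 100 µL began 24 h before a 1.8 mm calvarial defect was made and were repeated daily for 1 week by the labels, while the study's methods give 2 mg/kg and 4 weeks. Each library pooled the digested tissue of 5 mice, so each condition was measured once, without a replicate, and no test between conditions could be made. The intervals given are 95% intervals that cover counting error only, and a gene was called higher or lower where its level differed at least 2-fold.

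Dendritic cells take up antigen, cut it into peptides and display the peptides on MHC class II to CD4 T cells. The invariant chain encoded by Cd74 guards the binding groove until the H2-DM proteins load a peptide, H2-O proteins restrain H2-DM, and the transactivator CIITA switches the whole set on. Conventional type 1 dendritic cells carry Xcr1 and Clec9a and depend on Batf3, whereas type 2 cells depend on Irf4, carry Sirpa and, in part, the lectins Cd209a, Clec10a and Mgl2. Monocytes that enter injured tissue can also acquire Cd209a and MHC class II, which makes Flt3 and Zbtb46 on the one side and Csf1r, Ly6c2 and Lyz2 on the other informative about these cells.

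The promoters of the class II genes carry a shared regulatory stretch whose last element, the Y box, reads TGATTGG and is bound by NF-Y. The letters TGATTGG were searched on both strands (CCAATCA on the other) in RefSeq windows of GRCm38.p6 that run from 250 bases before to 50 after each annotated start. Of 19 class II genes on the list used here, 13 had a window and 7 of them (53.8%) held the letters, beside 8.995% of all 27025 genes with a window. The 150 bases upstream of the start are shown for 4 of these genes, the first pair because their transcripts chose the cells and the second pair because H2-DMb1 and H2-Oa were among the genes that stood highest in the members over other cells. Capitals mark the letters searched for, which began 61, 50, 63 and 45 bases upstream of the start.
H2-Eb1: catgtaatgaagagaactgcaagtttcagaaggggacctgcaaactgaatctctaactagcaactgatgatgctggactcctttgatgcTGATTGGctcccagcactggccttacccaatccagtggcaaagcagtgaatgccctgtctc
H2-Aa: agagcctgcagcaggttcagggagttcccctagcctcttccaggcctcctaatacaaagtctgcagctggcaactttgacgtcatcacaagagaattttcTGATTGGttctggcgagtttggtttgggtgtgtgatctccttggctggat
H2-DMb1: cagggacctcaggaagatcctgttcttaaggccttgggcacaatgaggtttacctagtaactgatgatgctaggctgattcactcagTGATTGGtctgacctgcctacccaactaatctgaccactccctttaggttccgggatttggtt
H2-Oa: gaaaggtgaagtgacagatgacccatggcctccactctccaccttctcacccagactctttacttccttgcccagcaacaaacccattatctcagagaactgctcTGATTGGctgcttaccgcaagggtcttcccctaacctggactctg
These stretches lie at chr17:34305717-34305866 on the plus strand, chr17:34287824-34287973 on the minus strand, chr17:34153041-34153190 on the plus strand and chr17:34092229-34092378 on the plus strand. The letters were also in the windows of H2-DMb2, H2-Ob and H2-Eb2, and in none of the windows of H2-DMa, Ctss, Ctsl, Lgmn, Ifi30 and Wdfy4. A match describes the sequence and shows no binding, and the lack of one says only that these letters are not in that window.

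The GA library held 182949385 UMIs in 9322 barcodes and the control library 214993030 UMIs in 8718 barcodes. The 9036 GA cells kept had a median of 11267 UMIs and the 8093 control cells one of 17499 UMIs. The members themselves were of like depth, with medians of 17660 UMIs (8129 to 80137) in 40 GA cells and 16011 UMIs (7332 to 92519) in 95 control cells. They also had similar medians of 3815 and 3765 genes and of 2.40% and 2.63% mitochondrial UMIs. Summed, they held 912220 and 1760206 UMIs. The floor used here, 3 UMIs, was thus 3.29 UMIs per 1000000 UMIs (CPM) in GA and 1.70 CPM in control. The 95% interval of a count of 0 UMIs reached 4.04 CPM in GA and 2.10 CPM in control. Both matrices listed 23 barcodes in common, and no barcode was a member in both.

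Within the members, Cd209a ranged from 2 to 52 UMIs per GA cell with a median of 8.5, and from 2 to 50 per control cell with a median of 12. The MHC class II sum ranged from 30 to 1170 UMIs (median 490.5) in GA and from 30 to 962 UMIs (median 453) in control. Most members therefore lay far inside the limit on MHC class II, while the limit on Cd209a passed through low counts. At exactly 2 Cd209a UMIs there were 6 GA and 10 control members, and 9 and 16 cells met every other condition with 1 UMI. At 30 to 59 MHC class II UMIs there were 4 and 12 members, 0 and 3 cells lay just outside at 15 to 29 UMIs, and 5 and 24 Cd209a-bearing cells held 0 to 14 UMIs. Those last cells carried Ly6c2 at 572 and 1339 CPM and Siglech at 1126 and 419 CPM. The members just inside, at 30 to 59 UMIs, had Ly6c2 at 754 and 1058 CPM, Siglech at 0 and 408 CPM, Itgax at 38.2 and 22.9 CPM and no UMI of Mgl2. Only 2 GA and 5 control cells were set aside by the C1q limit, with Apoe, a macrophage lipid carrier, at 10866 and 12111 CPM.

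**Figure D1:**
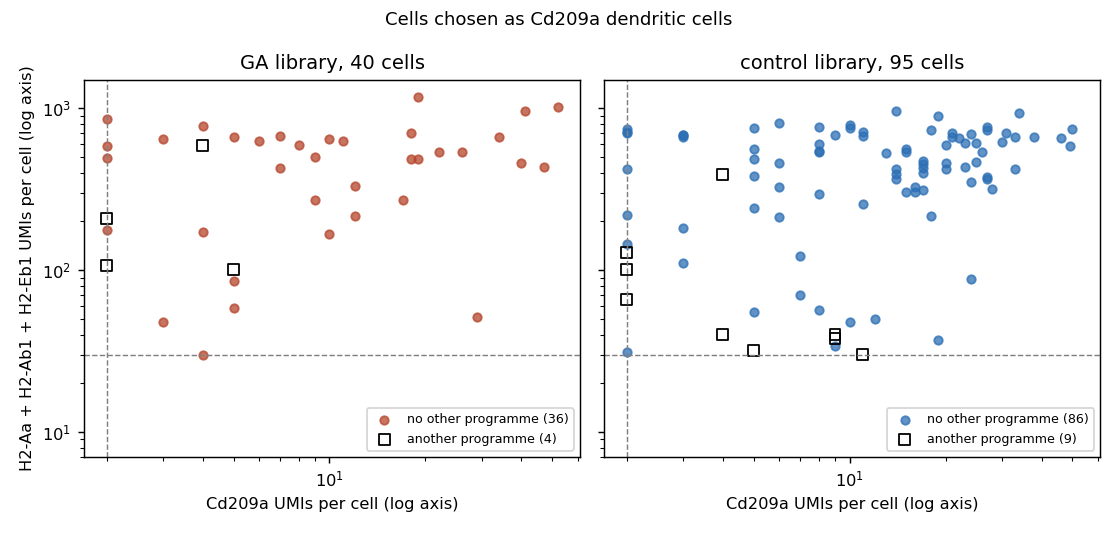
Cd209a UMIs (x axis, log scale) against the summed UMIs of H2-Aa, H2-Ab1 and H2-Eb1 (y axis, log scale) in each member cell of the GA library (left, 40 cells) and the control library (right, 95 cells). Dashed lines are the limits of the rule, open squares are the 4 and 9 cells that also held the programme of another cell type, and most cells lie well above the MHC class II limit in both libraries.

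The label was checked against markers the rule did not use. Flt3, the receptor for the dendritic cell growth factor FLT3 ligand, was found in 55.0% of GA members (22 of 40) and 72.6% of control members (69 of 95). In C1q macrophages, which should lack it, Flt3 was found in 2.78% and 8.90% of cells, at median depths of 19485.5 and 20743 UMIs. After each cell was thinned to 5000 UMIs the shares of members with Flt3 were 40.0% and 43.2%, against 0% (0 of 143 cells, an upper limit of 2.55%) and 2.62% of C1q macrophages. Itgax, which encodes CD11c, was found in 67.5% and 63.2% of members, and in 31.2% and 39.8% of C1q macrophages. Zbtb46, a transcription factor of conventional dendritic cells, was found in 55.0% and 47.4% of members and in 7.64% and 9.95% of C1q macrophages. Of the members, 12 GA and 43 control cells showed both Flt3 and Itgax, and 3 and 9 cells neither. As a group the members carried these markers above their level in C1q macrophages. These markers did not set the members apart from every class. In cells that met the rule but for carrying 0 or 1 Cd209a UMI, thinned shares with Itgax were 20.6% and 33.1%, against 42.5% and 32.6% of members. Flt3 and Zbtb46 were in smaller thinned shares of those cells than of members. Without thinning, Flt3 was found in 12 of 12 GA and 18 of 19 control type 1 dendritic cells. At this depth a marker without a UMI in a single cell is not shown to be absent from it.

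Some members carried transcripts of another cell type. Mesenchymal genes made up 3868 and 4253 UMIs in 2 GA cells and 1162 to 6930 UMIs in 3 control cells, with at most 15 and 17 UMIs in any other member. Plasmacytoid dendritic cell genes made up 90 UMIs in 1 GA cell and 45 to 65 UMIs in 5 control cells. Azurophil granule genes made up 1926 UMIs in 1 control cell, and haemoglobin 1639 UMIs in 1 GA cell and 391 UMIs in 1 control cell. In all, 4 of 40 GA members (10.0%) and 9 of 95 control members (9.47%) were of this kind, and results that rest on them are given with and without them. Scrublet, a doublet caller, marked 0 GA cells and 37 control cells (0.457%), too few to be of use, so the cells with the highest scores were removed as an alternative.

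Summed over whole marker lists, these cells carried nearly all of the mesenchymal and haemoglobin signal. The 6 mesenchymal markers stood at 9092 CPM in GA members and 6996 CPM in control members, with Col1a1 the most abundant, and at 226 and 350 CPM without those cells. The 4 haemoglobin genes stood at 1805 and 255 CPM, and at 8.16 and 33.5 CPM without them. The 5 plasmacytoid markers stood at 195 and 371 CPM, and at 77.5 and 95.6 CPM without them, with Runx2 the most abundant and Cox6a2 and Klk1 at 0 UMIs in both libraries. The 6 neutrophil markers stood at 610 and 383 CPM, and at 601 and 148.9 CPM without those cells, and the 8 macrophage markers at 274 and 636 CPM, and at 313 and 660 CPM without them. The NK markers Ncr1, Klrb1c, Gzma and Prf1 and the mast cell and basophil markers Cpa3, Mcpt8, Ms4a2 and Mcpt4 were all at 0 UMIs, as were Cd3e, Trac, Cd79a and the Langerhans cell gene Cd207. Epcam, the other gene of the Langerhans cell list, had 3 UMIs (3.29 CPM) in GA members and 57 UMIs (32.4 CPM) in control members. S100a8, a neutrophil transcript, stood at 269 and 185 CPM in the members and at 36188 and 9787 CPM in all other kept cells, among which are the neutrophils. In the control members 1 cell held 45.2% of its UMIs, and without cells of another programme there were 203 and 96 UMIs, a log2 ratio of 2.07 (1.72 to 2.44) against 0.54 (0.30 to 0.78) with all members. S100a9 stood at 284 and 162 CPM in the members, a log2 ratio of 0.81 (0.56 to 1.05), with 50.35% of its control UMIs in 1 cell. Without cells of another programme it had 204 and 102 UMIs, a log2 ratio of 1.99 (1.64 to 2.35). The part of neutrophil RNA taken up with the cells in the results below was not tested.

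Cd209a dendritic cells made up a smaller share of the GA library. With 40 cells they took up 0.443% of the kept GA cells (exact interval 0.316 to 0.602%), and with 95 cells 1.17% of the kept control cells (0.951 to 1.43%). The GA share was 0.377 times the control share (0.261 to 0.545). Out of cells with S100a8 and S100a9 below 3% of their UMIs, which leaves neutrophils out, the ratio was 0.600, and out of cells with at least 30 MHC class II UMIs it was 0.653. When every cell was thinned to 5000 UMIs before the rule was applied, 20 of 7551 cells in GA and 68 of 6481 in control remained members, and the GA share was 0.252 times that of control. All other settings tried for the rule gave ratios from 0.357 to 0.395. The share was therefore lower in GA with each denominator, though by a different amount, and with 1 library per condition the spread between mice is unknown.

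Other antigen-presenting classes were counted with the same limits. Migratory dendritic cells, which carry Ccr7, had a ratio of 0.261 (0.161 to 0.424; 21 GA and 72 control cells), and type 1 dendritic cells one of 0.566 (0.275 to 1.16; 12 and 19 cells). C1q macrophages with MHC class II had a ratio of 0.675 (0.545 to 0.837), and cells that met the rule but for carrying 0 or 1 Cd209a UMI had one of 0.593 (0.462 to 0.762). Ly6c2 monocytes had a ratio of 1.71 (1.501 to 1.94) and were the one class compared with a larger share in GA. They were chosen by at least 10 Ly6c2 UMIs and differed in depth, with medians of 33516 UMIs in GA and 17780 UMIs in control. The part of depth in their ratio was not tested. The intervals of the Cd209a, migratory and type 1 dendritic cells overlapped, and the interval of the Cd209a dendritic cells lay below that of the monocytes.

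**Figure D2:**
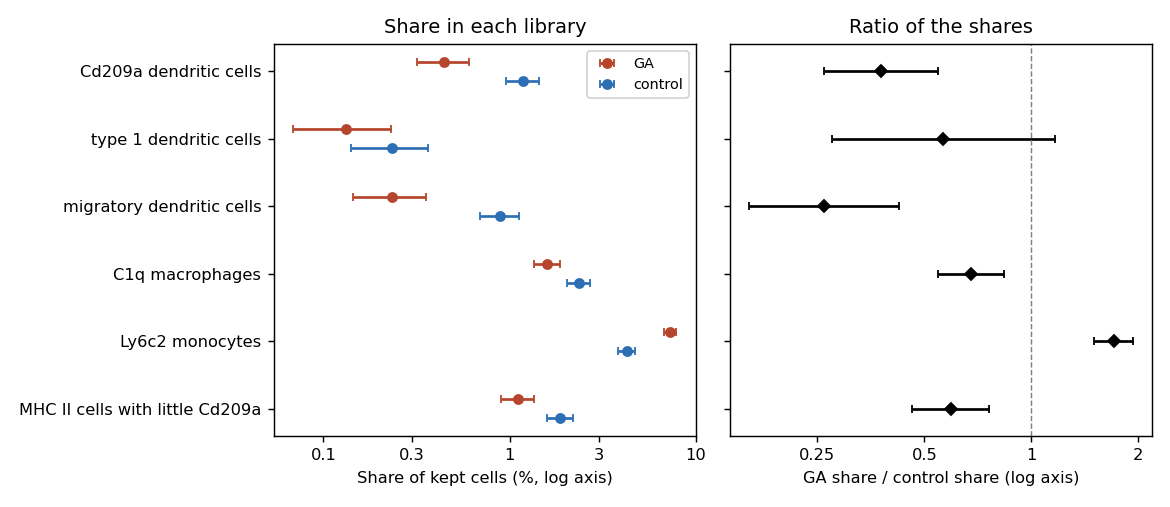
Share of kept cells (left, %, log axis) of 6 classes in the GA and control libraries with exact 95% binomial intervals, and the ratio of the GA share to the control share with its 95% interval (right, log axis; dashed line at equal shares). The Cd209a dendritic cells lie at 0.377, between the migratory cells at 0.261 and the type 1 cells at 0.566, and the Ly6c2 monocytes lie above 1.

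Against all other kept cells, 4.53% of 15553 genes were at least 2-fold higher in the members of both libraries and 20.5% were lower. Of the 20 genes that stood furthest above other cells in both libraries, genes of the rule apart, 6 were on the class II list and 3 on the C-type lectin list. Mgl2, which encodes a galactose-type lectin, reached 286 CPM in GA members and 338 CPM in control members against 5.73 and 4.54 CPM in other cells. Clec10a, the other galactose-type lectin of the mouse, reached 263 and 383 CPM. Ciita, the class II transactivator, reached 157 and 214 CPM, and Cd74, the invariant chain, 15151 and 17969 CPM. H2-DMb1 stood at 816 and 760 CPM, H2-DMa at 630 and 747 CPM, and H2-Oa at 53.7 and 118 CPM. Because Clec10a and Mgl2, and H2-DMb1 and H2-DMb2, are close paralogs, the split of reads within each pair is uncertain.

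Klrd1, Klrb1b and Klrk1, known as receptor genes of natural killer cells, were also among the 20. Klrd1, which encodes CD94, stood at 288 CPM in GA members and 361 CPM in control members, and was found in 75% and 71.6% of them. Klrb1b stood at 117 and 171 CPM and Klrk1, which encodes NKG2D, at 119 and 118 CPM. The defining NK markers were at 0 UMIs in the same cells, as stated above. Klrd1 stood at 389 and 304 CPM in migratory dendritic cells but at 1.18 and 9.93 CPM in C1q macrophages. The 20 also held Spint1, a membrane protease inhibitor, at 51.5 and 122 CPM, Kmo, an enzyme of kynurenine metabolism, at 60.3 and 86.9 CPM, Htr7, a serotonin receptor, at 78.9 and 136 CPM, and Slamf9 at 104 and 185 CPM. Dcstamp, a fusion gene of osteoclasts and multinucleated cells, stood at 175 and 107 CPM, but 1 cell held 50% of its GA UMIs. The others were H2-DMb2, Clec4b1, Rtn1, Cd7 and P2ry10.

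The members were next set against single classes within each library, and a gene was counted where the 2-fold difference held in both. Against C1q macrophages, 8 of 15 genes of the conventional dendritic list were higher, beside 2.92% of all 6433 genes, and Id2 was lower. Flt3 stood at 88.8 CPM (GA) and 95.4 CPM (control) in the members against 1.77 and 5.47 CPM, and Irf4 at 55.9 and 86.9 CPM against 16.2 and 17.4 CPM. None of 14 genes of the monocyte-derived list was higher and 7 were lower, among them Fcgr1, Cd14, Csf1r, Ms4a7, Lyz2 and Fcgr3, beside 7.65% of all genes. Csf1r, the receptor that sustains macrophages, stood at 109 and 143 CPM in the members against 519 and 460 CPM. Of 18 chemokine genes 14 were lower and Ccl17 alone was higher. Without cells of another programme on either side, 7 of 14 dendritic genes were higher, beside 3.45% of all genes, as Zbtb46 no longer had enough UMIs to be counted. The same 7 monocyte-derived genes were lower, beside 9.18%.

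Against Ly6c2 monocytes, 10 of 14 genes of the conventional dendritic list were higher, beside 5.65% of all genes, and 8 of 13, beside 4.02%, without cells of another programme. Ly6c2, which chose those monocytes, and Lyz2 were the genes of the monocyte-derived list that were lower (2 of 13), beside 9.56% of all genes. Ccr2, Csf1r, Itgam and Sirpa did not differ 2-fold: Csf1r stood at 109 and 143 CPM in the members and at 99.0 and 131 CPM in the monocytes. Of the 18 genes each of the S phase and G2/M lists, 16 and 16 were lower in the members. Without cells of another programme 3 of 13 were lower, beside 8.8% of all genes. The monocyte class held a large share of cells with another programme, 249 of 653 in GA and 109 of 343 in control.

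Against type 1 dendritic cells, the monocyte-derived list went the other way, with 9 of 12 genes higher in the members, beside 7.32% of all genes. These were Csf1r, Ms4a6c, Ms4a4c, Lyz2, Ccr2, Itgam, Fcgr3, Sirpa and Zeb2. Of the C-type lectins, 8 of 9 were higher, among them Clec10a, Mgl2 and Clec4a1 to Clec4a3. Irf4 stood at 55.9 and 86.9 CPM in the members against 5.52 CPM (2 UMIs) and 2.03 CPM (1 UMI) in the type 1 cells. Flt3 was lower, at 88.8 and 95.4 CPM against 323 and 266 CPM, and Id2, a factor that type 1 cells need, was lower at 96.5 and 245 CPM against 911 and 832 CPM. Of all genes, 4.41% were lower. Without cells of another programme, 10 of 11 monocyte-derived genes were higher, beside 7.45%, and Flt3 and Id2 were again lower, beside 4.64%. The type 1 class was small, and 3 of its 12 GA cells held a plasmacytoid programme.

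Against migratory dendritic cells, Flt3, Zbtb46, Id2 and Relb were lower, and Kmo, Bcl11a and Notch2 higher, of 15 genes, beside 5.32% lower and 5.43% higher of all genes. Of 11 costimulation genes Cd40, Cd274 and Pdcd1lg2 were lower and Cd48 was higher, with Cd40 at 43.8 and 35.8 CPM in the members against 123 and 151 CPM. Without cells of another programme Flt3, Id2 and Relb were lower (5.98% of all genes) and Bcl11a and Notch2 higher (5.72%). The nearest class was that of cells with 0 or 1 Cd209a UMI, where only 0.724% of all genes were higher and 3.65% lower in the members. Of 14 class II genes 3 were higher (Ciita, H2-DMb2 and H2-Oa) and 2 lower (Ctsl and Lgmn, lysosomal proteases), and of 13 lectins 3 were higher (Cd209d, Clec10a and Mgl2) and 3 lower (Clec4d, Clec4e and Clec5a). Csf1r, Cd14, Fcgr1, Ms4a7 and Lyz2 were lower. The same class II and monocyte-derived genes were called, and the same lectins but for Cd209d, without cells of another programme, beside 0.885% higher and 4.17% lower of all genes. Of the 15 genes of the dendritic list 3 were higher with all members (Zbtb46, Dpp4 and Ciita) and 6 without cells of another programme, the others being Flt3, Kmo and Bcl11a. Apoe stood at 38.4 and 328 CPM in the members and at 2165 and 2113 CPM in those cells.

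**Figure D3:**
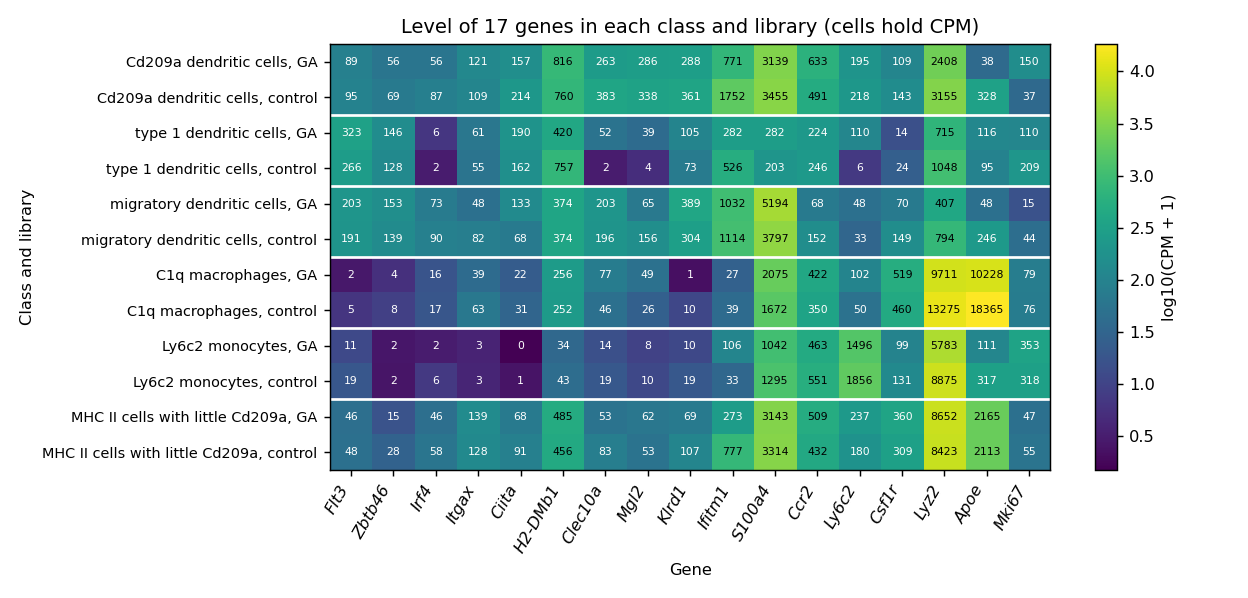
Level of 17 genes (columns) in 6 classes of cells in each library (rows). The colour gives log10(CPM + 1) and the number in each field CPM. The members combine Flt3, Zbtb46, Irf4, Clec10a, Mgl2 and Klrd1 with Ccr2, Csf1r and Lyz2, and hold far less Apoe than C1q macrophages.

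The members were not uniform. Each was thinned to 5000 UMIs and its UMIs of 6 conventional dendritic genes (Flt3, Zbtb46, Dpp4, Bcl11a, Runx3 and Cd24a) were set against those of 6 monocyte genes, among them Fcgr1, Cd14, Ly6c2, Csf1r and Ms4a6c. More conventional than monocyte UMIs were found in 5 of 40 GA members (12.5%, 4.19 to 26.8%) and in 28 of 95 control members (29.5%, 20.6 to 39.7%). More monocyte UMIs were found in 32 (80.0%) and 61 (64.2%). The cut runs through few UMIs, with 9 GA and 20 control cells within 1 UMI of equality, so these are ranges and not cell types. Genes outside both lists were compared without cells of another programme, over 29 GA and 56 control cells with more monocyte UMIs and 5 and 25 with more conventional UMIs. Fn1 stood at 414 and 339 CPM in the former against 40 CPM in the latter of each library, which is 1 UMI in GA and 5 UMIs in control. Lyz2 stood at 2690 and 6571 CPM against 520 and 840 CPM, and Plac8 at 876 and 954 CPM against 280 and 224 CPM. Napsa, an aspartic protease gene, went the other way, at 779 and 750 CPM against 1360 and 1528 CPM.

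The members were also divided by the amount of MHC class II itself, a value the rule used, taken from members without another programme after thinning to 5000 UMIs. Under 60 class II UMIs there were 8 GA and 13 control cells, from 60 up to 150 there were 13 and 32, and at 150 or more there were 15 and 41. Cd74 was, at 6550, 18123 and 29333 CPM in GA and 7569, 19019 and 28473 CPM in control, higher in each range than in the one before, and Ciita likewise at 75, 185 and 280 CPM and 123, 206 and 259 CPM. Klrd1 followed the same order, at 125, 354 and 760 CPM in GA and 15.4, 375 and 546 CPM in control, as did Clec10a, at 150, 323 and 427 CPM and 46.2, 344 and 590 CPM. Ly6c2 ran in reverse, at 550, 76.9 and 53.3 CPM in GA and 1077, 138 and 39.0 CPM in control, and so did Plac8, at 1125, 785 and 587 CPM and 1800, 713 and 322 CPM. These genes were picked after their values were seen, so their order supports nothing. Some values rest on few thinned UMIs, as Klrd1 at 15.4 CPM does on 1 UMI and Ciita at 75 CPM on 3 UMIs.

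In the members of GA over control, 36 of 2296 genes with at least 200 UMIs were at least 2-fold higher (1.57%) and 35 were at least 2-fold lower (1.52%). Without cells of another programme these were 16 (0.874%) and 24 (1.31%) of 1831 genes. Over all 9029 genes with at least 20 UMIs the median log2 ratio was 0.01, and 51.1% were above 0. Scaling each library to its total holds such a median near 0. Lists are given below by the number of genes above and below equality and by their median, to be read beside these figures.

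Genes of the cell cycle lists lay above equality in GA members. Of those with at least 200 UMIs, 4 of 4 G2/M genes and 0 of 1 S phase genes were at least 2-fold higher, beside 1.57% of all genes. All 17 genes of the G2/M list with enough UMIs were above equality, with a median log2 ratio of 2.02, as were all 16 of the S phase list, with a median of 1.16. Top2a, the topoisomerase that untangles replicated DNA, stood at 174 CPM in GA and 35.2 CPM in control, a log2 ratio of 2.31 (1.87 to 2.75). It was found in 7 of 40 GA and 14 of 95 control members, and 5 cells of each library held 146 of 159 and 51 of 62 UMIs. Mki67, Ube2c and Hmgb2, also past 2-fold, had 27.0%, 26.8% and 25.4% of their GA UMIs in 1 cell. Smc4, a condensin subunit, stood at 130 and 57.9 CPM, Tuba1b, an alpha tubulin, at 371 and 176 CPM, Tubb5, a beta tubulin, at 572 and 303 CPM, and Tmpo, a lamina protein, at 127 and 60.8 CPM. Hmgn2, H2afv, Nucks1, Ran and Lmna, genes of chromatin, nuclear transport and the nuclear lamina, had log2 ratios from 0.78 to 0.85. These and Tubb5, at 0.92, did not reach 2-fold. Without members that held at least 5 UMIs of dividing genes, Tmpo, Hmgn2 and H2afv turned to log2 ratios of -0.32, -0.13 and -0.60. Smc4 and Tuba1b were then at 0.25 and 0.27 and lost their 2-fold difference, Tubb5, Nucks1 and Ran were at 0.12, 0.13 and 0.43, the S phase median was 0.13, and Lmna was at 0.86. With each member thinned to 5000 UMIs Smc4 and Tmpo were at 0.69 and 0.69, and with each cell weighted equally Tuba1b and Tmpo were at 0.90 and 0.72, all below 2-fold. Tubulin reads may be shared among paralogs.

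The same difference could be read as a share of cells. The 5 genes Mki67, Top2a, Stmn1, Ube2c and Birc5 together reached 5 UMIs in 10 of 40 GA members (25%, 12.7 to 41.2%) and in 10 of 95 control members (10.5%, 5.16 to 18.5%), a ratio of 2.38 (1.07 to 5.26). At 20 UMIs there were 8 such cells in GA (20%) and 3 in control (3.16%), which is 6.33 times the share (1.77 to 22.7), and with each member thinned to 5000 UMIs 7 GA cells (17.5%) and 3 control cells (3.16%) reached 5 UMIs. Without cells of another programme, 7 of 36 and 2 of 86 cells reached 20 UMIs. The dividing cells were deeper, with medians of 33093.5 and 24002 UMIs against 15740.5 and 15622.5 UMIs in the rest, and held less MHC class II, a value the rule used, with medians of 174.5 and 101 UMIs against 519.5 and 454.5 UMIs. These were 173 and 294.5 UMIs against 537 and 481 UMIs without cells of another programme, and the control values rest on 3 and 2 dividing cells. The medians above are for the limit of 20 UMIs. At 5 UMIs the class II medians were 331.5 and 275 UMIs in dividing cells against 498.5 and 459 UMIs in the rest. Without cells of another programme they were 176 and 421 UMIs against 536 and 508.5 UMIs. In C1q macrophages the share at 20 UMIs was 6.94% and 6.81%, a ratio of 1.02 (0.461 to 2.26), and in Ly6c2 monocytes 66.9% and 47.2%, a ratio of 1.42 (1.25 to 1.60). The ratio was 1.27 (0.422 to 3.80) in type 1 dendritic cells, 1.71 (0.163 to 18.0) in migratory dendritic cells and 0.647 (0.171 to 2.44) in the cells with little Cd209a. Whether the ratios differed between classes was not tested. The monocytes had median depths of 33516 UMIs in GA and 17780 UMIs in control and were not thinned for this count. With the highest doublet scores removed, the ratio at 5 UMIs in the members was 2.25 (0.941 to 5.37), an interval that spanned equal shares. The share at 20 UMIs rests on 8 and 3 cells.

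**Figure D4:**
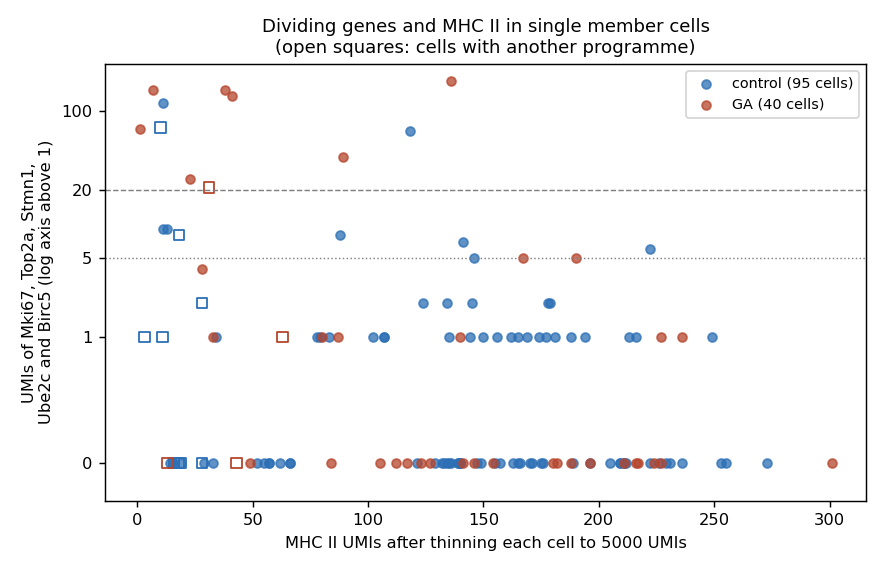
UMIs of Mki67, Top2a, Stmn1, Ube2c and Birc5 in each member (y axis, log above 1) against its MHC class II UMIs after thinning to 5000 UMIs (x axis). Filled points are cells without another programme and open squares cells with one, the dotted and dashed lines mark 5 and 20 UMIs, and the cells above 20 UMIs, 8 from GA and 3 from control, all lie below 150 class II UMIs.

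Of 16 genes of the class II processing list, 12 were below equality in GA members, with a median log2 ratio of -0.36. Its order-statistic interval, which describes the spread among genes and not among samples, spanned equality (-0.79 to 0.10). Without cells of another programme 12 of 14 were below equality, with a median of -0.36 and an interval that did not span it (-1.07 to -0.13). Without dividing members, which held less class II, the median was -0.13, and with each cell weighted equally -0.18. Cd74 stood at 15151 and 17969 CPM, a log2 ratio of -0.25 (-0.27 to -0.22), and H2-DMa at 630 and 747 CPM. H2-Oa, which restrains peptide loading, was lower at 53.7 and 118 CPM, a log2 ratio of -1.13 (-1.61 to -0.68), which was -0.88 without dividing members and -0.84 with each cell weighted equally, both below 2-fold, and H2-DMb2 at 80.0 and 170 CPM, a log2 ratio of -1.09. H2-DMb1 stood at 816 and 760 CPM, with an interval that spanned equality. The MHC class I list had 11 of 14 genes above equality and a median of 0.16, whose interval also spanned equality (-0.05 to 0.45), led in abundance by B2m at 1565 and 1325 CPM and H2-D1 at 1528 and 1578 CPM.

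Among costimulation genes, 10 of 15 were below equality with a median of -0.29. Cd86 stood at 579 CPM in GA and 894 CPM in control and Cd80 at 166 and 269 CPM, log2 ratios of -0.63 (-0.77 to -0.48) and -0.70 (-0.97 to -0.43). Both are ligands of CD28 on T cells, and neither reached a 2-fold difference. Of the conventional dendritic list, 11 of 15 genes were below equality with a median of -0.30. Flt3 stood at 88.8 and 95.4 CPM, Zbtb46 at 55.9 and 68.7 CPM and Itgax at 121 and 109 CPM, each with an interval that spanned equality. Id2 was lower at 96.5 and 245 CPM, a log2 ratio of -1.34 (-1.69 to -1.01), and of -0.71, below 2-fold, without dividing members. Irf8, a transcription factor of type 1 and plasmacytoid cells and of monocytes, was lower at 70.2 and 156 CPM, but 1 cell held 54.7% of its GA UMIs. Its log2 ratio of -1.15 was -0.85, below 2-fold, without dividing members, and -2.13 with at least 3 Cd209a UMIs.

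The lectins divided by gene. Of 14 C-type lectin genes 9 were below equality, with a median of -0.19, which was 0.02 without dividing members. Clec4a1, Clec4a2 and Clec4a3, receptors of the DCIR group, stood above it with log2 ratios of 0.72, 0.70 and 0.50. Clec4n, which encodes Dectin-2, stood at 142 and 259 CPM, a log2 ratio of -0.86 (-1.15 to -0.57), and Clec12a at 52.6 and 107 CPM. Clec10a, at 263 and 383 CPM, had a log2 ratio of -0.54 (-0.76 to -0.33). Cd209a itself, which chose the cells, stood at 589 and 789 CPM.

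Chemokines differed in both directions. Ccl9, a CCR1 ligand, was higher in GA at 492 and 228 CPM, a log2 ratio of 1.11 (0.91 to 1.31), and 1.15 without cells of another programme. It was 0.81 with each cell weighted equally and 0.75 after thinning, both below 2-fold. Its neighbour Ccl6 stood at 516 and 265 CPM, but 1 GA cell held 55.4% of its UMIs. Ccl3 and Ccl4, inflammatory chemokines, stood at 20.8 and 63.1 CPM and at 55.9 and 181 CPM, from 7 GA cells each and from 21 and 27 control cells, and 1 control cell held 43.9% of the control Ccl4 UMIs. Ccl17, a CCR4 ligand, stood at 301 and 61.4 CPM, from 8 GA and 12 control cells, with 34.9% of its GA UMIs in 1 cell. The median of 16 chemokine genes was -0.30, and it was 0.20 after thinning. Of 14 cytokine genes 10 were below equality, with Tnf at 36.2 and 83.5 CPM, Osm at 33.98 and 81.8 CPM and Il1b at 1403 and 1744 CPM.

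Among the named genes Apoe lay furthest below equality, at 38.4 CPM in GA members and 328 CPM in control members, a log2 ratio of -3.10 (-3.63 to -2.60). It was found in 19 of 40 and 67 of 95 cells, and 5 control cells held 356 of its 578 UMIs. Genes left out of the named ones because 1 cell held over 25% of their UMIs lay lower still: Spp1 at 33.98 and 461 CPM (log2 ratio -3.76, in 12 and 49 cells), and the azurophil granule genes Mpo, Prtn3, Elane and Ctsg. For these granule genes 1 control cell held 98.5 to 100% of the control UMIs. For Spp1 1 control cell held 70.3% of the 811 control UMIs. Without cells of another programme Spp1 was at -3.67, with 27 GA and 684 control UMIs, a value that still included that cell. None of the granule genes was then lower in GA. Their UMIs in GA and control were then 4 and 2 for Mpo, 8 and 4 for Prtn3, 3 and 0 for Elane and 0 and 0 for Ctsg. The level of Apoe also lay below equality in GA in migratory dendritic cells (log2 ratio -2.37), Ly6c2 monocytes (-1.51) and C1q macrophages (-0.84), but not in type 1 dendritic cells (0.28) or in the cells with little Cd209a (0.04, -0.02 to 0.09). Apoe is the most abundant marker of the macrophage list in control members, and the part of macrophage RNA in its difference was not tested.

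Other genes that were lower included Pkib, an inhibitor of protein kinase A, at 52.6 and 185 CPM, Gpr171, a G protein-coupled receptor, at 63.6 and 170 CPM, Dab2, an endocytic adaptor, at 99.8 and 249 CPM, and Spint1 at 51.5 and 122 CPM. Ccrl2, an atypical chemokine receptor, and Ggta1, a galactosyltransferase, stood at 46.0 and 107 CPM and at 53.7 and 122 CPM. Ifitm1, an interferon-induced membrane protein, stood at 771 and 1752 CPM, a log2 ratio of -1.18 (-1.31 to -1.07). It did not reach 2-fold with each cell weighted equally (-0.64), after thinning (-0.69) or without dividing members (-0.88). Ifitm2 stood at 1473 and 1670 CPM and Ifitm3 at 2566 and 2326 CPM. Hspa1b, a heat shock gene with a near-identical copy, stood at 63.6 and 169 CPM, and Stk38l, a kinase gene, at 48.2 and 104 CPM. Hspa1b was at a log2 ratio of -0.78 without dividing members, Dab2 at -0.69 after thinning and Ggta1 at -0.66 with each cell weighted equally. Spint1 was at -0.91 with each cell weighted equally and Ccrl2 at -0.87 after thinning. Stk38l, with 45.5% of its GA UMIs in 1 cell, was at -0.64 to -0.91 in 5 of the alternatives, and all of these are below 2-fold. Runx2 and Chst11 had log2 ratios of -1.14 and -1.35, and of -0.29 and -0.80 without cells of another programme, where they no longer reached a 2-fold difference.

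Interferon genes as a list lay near equality, with 15 of 25 above it and a median of 0.10. Isg15, a ubiquitin-like protein induced by interferon, stood at 158 and 76.1 CPM, a log2 ratio of 1.05 (0.70 to 1.40), and of 0.85 without cells of another programme. It was 0.38 with each member thinned to 5000 UMIs, below 2-fold. In other classes the log2 ratio was 1.78 in C1q macrophages, 1.32 in the cells with little Cd209a, 1.05 in migratory dendritic cells, -0.14 in type 1 dendritic cells and -0.26 in Ly6c2 monocytes. Irf7 stood at 84.4 and 58.5 CPM. Higd1a, Mif and Pgk1, genes of hypoxia and glycolysis, had log2 ratios of 1.06, 0.93 and 0.81, which were 0.48, 0.24 and 0.40 without cells of another programme. The glycolysis and hypoxia list had a median of 0.19 with all members and of -0.06 without those cells.

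**Figure D5:**
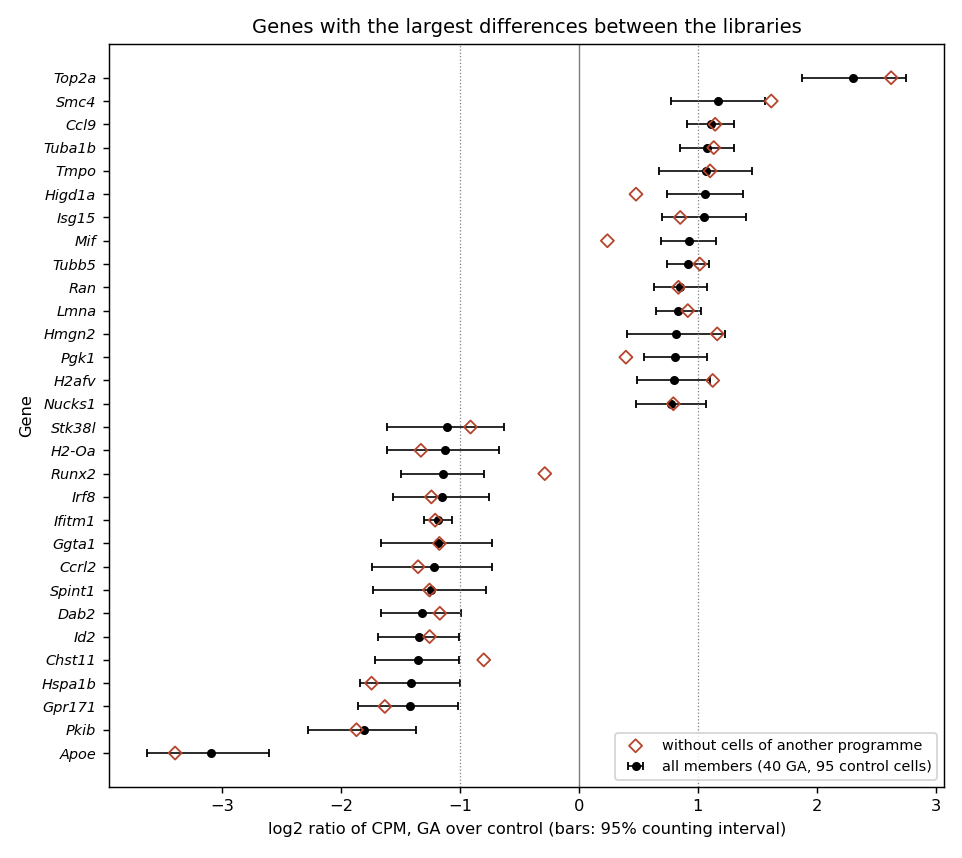
log2 ratio of CPM, GA over control, for the 30 named genes (15 highest and 15 lowest) in all members (points, with 95% counting intervals) and without cells of another programme (open diamonds). Dotted lines mark 2-fold, Top2a lies highest at 2.31 and Apoe lowest at -3.10, and Higd1a, Mif, Pgk1, Chst11 and Runx2 move towards 0 without those cells.

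The S100 and annexin list had 11 of 12 genes above equality and a median of 0.45, and 10 of 12 with a median of 0.38 without cells of another programme. Its most altered abundant genes were Anxa2 at 1205 and 815 CPM and S100a10 at 1529 and 1041 CPM, partners in one membrane complex, and S100a8 and S100a9, which belong to the rule, are described with the neutrophil markers above. Monocyte-derived features had a median of -0.10 (5 of 13 above), type 2 dendritic group B genes -0.19 (1 of 8 above), which turned to 0.06 without dividing members, and growth factor receptors -0.20 (1 of 10 above). Pattern recognition genes had a median of -0.26 (3 of 13 above), NF-kB feedback genes -0.07 (5 of 14 above), immediate early and heat shock genes -0.15 (6 of 21 above) and Fc receptors -0.09 (0 of 5 above). Among receptors of migration, Ccr2, which brings monocytes from the marrow, stood at 632 and 491 CPM. Ccr6, the receptor for CCL20, had no UMI in GA members, where 3.29 CPM is the floor, and 24 UMIs (13.6 CPM) in 11 control members.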

How the data were processed

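Single-cell RNA-seq counts were analysed from 1 GA and 1 control library, each pooled from 5 mice. The authors deposited a matrix of UMI counts per gene and cell barcode for each library, made with Cell Ranger 7.0.1 per the file headers and the mm10 build per the labels, with no normalization. Cells with 500 to 140000 UMIs, 200 to 9500 genes and at most 15% mitochondrial UMIs were kept, as in the study's methods. The members and gene lists were chosen with earlier results of these data known, and the limits for another programme (100 mesenchymal, 20 plasmacytoid, 100 azurophil granule or 100 haemoglobin UMIs) and the class II ranges were set after seeing the data. For each library the UMIs of all members were added up per gene and expressed relative to their sum (CPM). The log2 ratio of 2 libraries has an exact conditional binomial interval, a share an exact Clopper-Pearson interval and a ratio of shares a log-normal interval. Genes with at least 200 UMIs over both libraries were counted past 2-fold. The lists used genes with at least 20 UMIs. Named genes were the 15 highest and 15 lowest ratios among genes with at least 200 UMIs, found in at least 20 members and with at most 25% of the UMIs of the higher library in 1 cell, the 20 genes at 50 CPM or more that stood furthest above other kept cells in both libraries, and genes of the lists, of which some are not reported here. Without replicate libraries no edgeR or other count test was run. Alternatives to the rule, depth (each cell thinned to 5000 UMIs), doublets, dividing cells, scaling and UMI minimum were tried. The computation was tested on simulated data. Python 3.11.15, numpy 2.4.6, scipy 1.17.1, pandas 2.3.3, scanpy 1.11.5 (with Scrublet) and matplotlib 3.10.9 were used.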

Additional observations from a re-analysis of the deposited data

Results flagged for a closer look

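Ifitm1 differed between GA and control in opposite directions in the Cd209a dendritic cells and in the Ly6c2 monocytes. Its log2 ratio, GA over control, was -1.18 in the Cd209a dendritic cells and 1.66 (1.48 to 1.84) in the monocytes. It was also below equality in the cells with little Cd209a, at -1.51 (-1.65 to -1.37), in type 1 dendritic cells, at -0.90 (-1.25 to -0.57), and in C1q macrophages, at -0.54 (-0.92 to -0.18), and it was -0.11 (-0.27 to 0.05) in migratory dendritic cells. The value in the Cd209a dendritic cells was -0.64 with each cell weighted equally, -0.69 with each cell thinned to 5000 UMIs and -0.88 without dividing cells. In the members, 5 cells held 463 of 703 GA UMIs and 5 cells held 766 of 3084 control UMIs. In all kept cells other than the members, Ifitm1 stood at 337 CPM in GA and 59.5 CPM in control. The monocytes, at 106 and 33.5 CPM, lay below that level in both libraries, so the higher level in GA was not confined to them. Another programme was held by 249 of 653 GA and 109 of 343 control monocytes, and its part in their ratio was not tested. With 1 library per condition the difference between the classes was not tested.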

How the results depend on the processing

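The share of Cd209a dendritic cells, GA over control, was 0.252 when each cell was thinned to 5000 UMIs, 0.600 out of cells low in S100a8 and S100a9 and 0.653 out of cells with at least 30 MHC class II UMIs, and moved by less than its interval under the other 11 settings. The share of dividing members was 2.38 times that of control at 5 UMIs, 6.33 times at 20 UMIs and 5.54 times after thinning, settings that were, like the removal of cells of another programme, chosen after seeing the data. The number of genes at least 2-fold higher was 3 after thinning, 12 with the highest Scrublet scores removed, 16 without cells of another programme, 78 with a minimum of 100 UMIs and 10 with one of 400 UMIs, and the number lower was 1, 84 and 13 after thinning and with those minimums, where fewer or more genes were counted. Without dividing members Tmpo, Hmgn2 and H2afv turned to log2 ratios of -0.32, -0.13 and -0.60 and Top2a, one of the genes that mark dividing cells, gave no value. The chemokine median turned to 0.20 after thinning, and the medians of the C-type lectins and of type 2 dendritic group B to 0.02 and 0.06 without dividing members, those of monocyte-derived features to 0.03 and NF-kB feedback to about 0 with the highest Scrublet scores removed, that of migration receptors to 0.19 after thinning, that of matrix genes to 0.09 with at least 3 Cd209a UMIs, and that of glycolysis and hypoxia to -0.07 after thinning. The cause was not tested. Of the other values for named genes 224 stayed within their interval and 42 did not, and of those for lists 234 did and 6 did not. No paired analysis was possible because each condition is 1 library. The 40 GA members limit what their 912220 UMIs can show for genes at low levels.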

Other observations

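In the Cd209a dendritic cells, of 15 neurotrophin and neuropeptide genes 7 had at least 20 UMIs, 3 of them above equality, with a median log2 ratio, GA over control, of -1.0 and an order-statistic interval over the genes that spanned equality (-2.22 to 0.77). The most abundant were Ramp1, which forms the calcitonin gene-related peptide receptor with Calcrl, at 107 CPM in GA members and 105 CPM in control members, and Ramp3, which forms an adrenomedullin receptor with Calcrl, at 54.8 and 110 CPM, a log2 ratio of -1.0 (-1.48 to -0.54). Ngfr, which encodes the p75 neurotrophin receptor, stood at 4.38 and 13.6 CPM, from 4 and 24 UMIs. Of 11 hedgehog genes 2 had at least 20 UMIs, both below equality. Of 12 genes of the osteoclast lineage 8 had at least 20 UMIs, 5 of them above equality, with a median of 0.48, and 6 did, 3 of them above, with a median of 0.34, without cells of another programme. Tnfrsf11a, which encodes RANK, stood at 21.9 and 27.8 CPM. Eicosanoid genes had a median of -0.24 (3 of 8 above equality), matrix and remodelling genes one of -0.12 (5 of 14 above) and type 2 dendritic group A genes one of -0.92 (1 of 3 above).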
